A study of Mus musculus with 42 samples.

Results

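Gene deserts are long stretches of the genome with no protein-coding gene start. The 5858 sites described here are places in such deserts that at least 1 of 7 HOX transcription factors bound strongly in mouse embryoid bodies patterned towards spinal cord. They were chosen by their measured values and their position. An event was taken when it was among the top 10000 of its factor's list by the estimated count of ChIP reads, lay on chromosomes 1 to 19 or X, and was more than 250 kb from every transcription start site (TSS) of a protein-coding gene. A total of 12894 events met the rule, and those within 100 bp of each other were merged into 5858 desert sites. The same lists held 69918 top events on these chromosomes, which merged into 32209 sites, so desert sites made up 18.2% of them and 26351 were other sites. Of the members, the one nearest to the limit lay 250.061 kb from a TSS, and the first event left out lay 249.997 kb away. In each list the last event taken and the first one left out had the same read count to the printed decimal, from 64.5 reads for HOXC6 to 345.9 reads for HOXC13.

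Hox genes give cells along the body axis their positional identity. Their proteins bind DNA through a homeodomain and, in many settings, together with the TALE cofactors PBX and MEIS, which have homeodomains of their own. Central HOX proteins such as HOXC6 and HOXC8 prefer a TAAT core, posterior ones such as HOXC9 and HOXC10 prefer a TTAT core. For HOXC13, also a posterior protein, the study reports distinct motifs with TTTAC. Deserts often flank developmental regulators, and distal enhancers inside them can act on a promoter over long distances through chromatin looping.

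All cells were mouse embryonic stem cell lines of the Ainv15 strain. Each line carries a single copy of 1 tagged Hox gene at the HPRT locus under a doxycycline (Dox) promoter, is named after that gene (iHoxc6 cells express HOXC6), and expresses it far from its own regulation. Embryoid bodies received retinoic acid and the smoothened agonist SAG, and Dox for 24 h before collection at day 3 or for 48 h before collection at day 4. A further set of embryoid bodies (EB) received 12 h of Dox and no patterning signals. The 42 libraries fall into 23 groups by their labels, and 21 of these groups have an event list.

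The full-length factors at day 3 were HOXA9, HOXD9, HOXC6, HOXC8, HOXC9, HOXC10 and HOXC13 (human cDNA), with 3 libraries for HOXC10 and 2 for each of the others. They were precipitated through an N-terminal Flag tag, except that for HOXC13, HOXA9 and HOXD9 the library numbered 2 was made with an HA antibody, and the first of HOXC10 came from a V5-tagged line with another antibody. The 4 chimeras at day 3 had 2 libraries each. In HOXC13:C10.1 and its version 2, HOXC13:C10.2, the N-terminal part of HOXC13 is joined to the C-terminal part of HOXC10 with its homeodomain. The reverse exchange is HOXC10:C13.1, with its version 2, HOXC10:C13.2. Version 2 takes a longer piece of the donor, which starts farther upstream of the homeodomain. HOXC6, HOXC9 and HOXC10 were also profiled at day 4, with 2, 2 and 4 libraries, and HOXC6 and HOXC9 in EB, with 2 each. MEIS was precipitated from day 3 cells of V5-tagged iHoxc6, iHoxc9 and iHoxc10 lines and PBX from day 4 iHoxc9 and iHoxc10 cells, with 1 library each. The lists hold no expression values, so the cell types were not checked here. Embryoid bodies are mixtures, and binding in more cells cannot be told apart from stronger binding per cell.

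The 40 libraries behind the 21 lists held 5.04 to 32.9 M aligned reads, and 0.008 to 0.527 of the reads in a library were assigned to events. Each list pools its libraries and gives no value per library. Every interval below is therefore a 95% interval for counting events (Wilson for a share, Newcombe for a difference) and holds no error between differentiations. A difference is called where its interval leaves out 0.

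The strongest desert site of each factor is shown first, with 50 bases to each side of the event. The sequences are RefSeq's for GRCm38 (the mm10 assembly), plus strand, with TAAT, TTTAT and TTTAC on either strand in capitals. They were chosen to show what the letters under very strong desert events look like.
HOXC6, chr13:39524004-39524104: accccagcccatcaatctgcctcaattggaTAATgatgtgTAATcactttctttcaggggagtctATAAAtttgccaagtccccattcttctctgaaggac
HOXC9, chr8:26661112-26661212: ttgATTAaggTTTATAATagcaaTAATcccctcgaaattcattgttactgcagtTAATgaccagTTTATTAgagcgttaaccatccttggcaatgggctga
HOXC10, chr16:74695806-74695906: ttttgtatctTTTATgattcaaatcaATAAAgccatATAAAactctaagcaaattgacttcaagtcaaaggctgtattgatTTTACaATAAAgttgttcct
HOXA9 and HOXD9, chr4:27887543-27887643: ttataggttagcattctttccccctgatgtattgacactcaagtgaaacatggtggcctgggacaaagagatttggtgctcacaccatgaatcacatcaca
HOXC13, chr15:24429208-24429308: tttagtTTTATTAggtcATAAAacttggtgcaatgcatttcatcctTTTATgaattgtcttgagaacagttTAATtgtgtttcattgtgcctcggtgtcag

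The HOXC6 site on chromosome 13 was also the strongest desert site of HOXC8, whose event lay 2 bp away. It sits 563 kb from the TSS of Slc35b3 and 764 kb from that of Ofcc1, outside any protein-coding gene, and its window holds 2 TAAT and 1 TTTAT. Estimated read counts rank events within a list and are not comparable between lists, so each count below comes with its rank. The site was at rank 3 for HOXC8 (3756 reads), 8 for HOXC6 (1378 reads), 46 for HOXC10 (937 reads), 108 for HOXD9 (956 reads), 110 for HOXA9 (1446 reads) and 302 for HOXC9 (1887 reads). HOXC13 had it just outside its top list, at rank 10175 with 341 reads. MEIS was present in all 3 lines, at rank 63 in iHoxc6 and rank 64 in iHoxc9 and in iHoxc10 cells. HOXC13:C10.2 (2842 reads) and HOXC13:C10.1 (2171 reads, rank 927) had it in their top lists, HOXC10:C13.2 had it at rank 21344 (119.5 reads), and HOXC10:C13.1 had no event.

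The strongest HOXC9 desert site lies between Thap1 and Zfp703, a zinc-finger transcriptional repressor gene, 316 kb from the latter's TSS. It was at rank 11 for HOXC9 (4669 reads) and 15 for HOXC13 (4852 reads), and lower in the top lists of HOXC8 (rank 4751), HOXC6 (rank 5262) and HOXA9 (rank 5278). HOXC10 and HOXD9 had no event there, nor did any of the 3 MEIS lists. The window holds 5 TAAT and 2 TTTAT.

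The strongest HOXC10 desert site is 284 kb from the start of Robo2, a receptor that guides axons away from Slit ligands. It was at rank 9 for HOXC10 (1438 reads), 353 for HOXD9 (646 reads), 428 for HOXA9 (895 reads) and 2336 for HOXC9 (792 reads). HOXC6 and HOXC8 had events there outside their top lists, at ranks 10845 and 17010. Its window holds 4 TTTAT, 1 TTTAC and no TAAT, and no MEIS list had an event.

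HOXA9 and HOXD9 shared their strongest desert site, between Manea and Epha7, an ephrin receptor gene, at ranks 13 and 4 (2721 and 2464 reads). It was also the strongest desert event of MEIS in iHoxc9 cells (rank 46, 1287 reads, 23 bp away). MEIS had it at rank 42 in iHoxc10 and 402 in iHoxc6 cells, and HOXC13 had no event. This window holds none of the 3 motifs. HOXC10 (rank 37), HOXC9 (rank 118) and HOXC6 (rank 8333) had it in their top lists.

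The strongest HOXC13 desert site is between Cdh18, a cadherin gene, and Basp1, a gene for a growth-cone protein, 984 kb from the latter. It was at rank 11 for HOXC13 (5345 reads), 212 for HOXC9 (2145 reads) and 3367 for HOXA9 (361 reads). HOXC6, HOXC8, HOXC10, HOXD9 and the 3 MEIS lists had no event there. All 4 chimeras did, and it was the strongest desert event of HOXC13:C10.1 (rank 4) and of HOXC10:C13.2 (rank 22).

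The chimeras' strongest desert sites were added after their values were seen. HOXC13:C10.2 was strongest between Klhl1 and Dach1 (rank 5, 6902 reads), in the body of the long noncoding RNA gene Gm33525, where HOXC10 ranked 21 with 1157 reads and HOXC13 had no event. HOXC10:C13.1 was strongest between Plekhb2 and Hs6st1 on a tandem repeat of ATAAA, shown because it is unlike the other windows.
HOXC10:C13.1, chr1:35719775-35719875: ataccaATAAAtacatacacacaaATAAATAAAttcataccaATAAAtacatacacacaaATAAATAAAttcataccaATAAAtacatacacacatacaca
The window holds 7 TTTAT. HOXC10:C13.1 had it at rank 23 (1916 reads) and HOXC10:C13.2 at rank 37 (1558 reads). Of the 7 full-length factors, HOXC13 was listed with 135 reads at rank 31772 and the other 6 had no event.

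The desert sites found in all 7 top lists numbered 49. The 4 of them with the best mean rank were between Zfp608 and Gramd3, between Tmem161b and Ccnh, between Poteg and Unc5d, and in an intron of Cntnap2, a neurexin-family adhesion gene. The sequences of 3 are shown, since they were bound by central and posterior factors alike.
Tmem161b to Ccnh, chr13:84625618-84625718: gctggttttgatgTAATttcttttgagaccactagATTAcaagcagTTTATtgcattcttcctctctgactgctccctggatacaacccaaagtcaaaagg
Poteg to Unc5d, chr8:27981015-27981115: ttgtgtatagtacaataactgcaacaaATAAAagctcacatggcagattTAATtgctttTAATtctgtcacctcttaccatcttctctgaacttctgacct
Cntnap2 intron, chr6:46451470-46451570: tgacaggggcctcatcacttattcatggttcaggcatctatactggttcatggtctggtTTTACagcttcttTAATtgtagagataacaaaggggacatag
The Tmem161b site was at rank 32 for HOXC6 (949 reads), 132 for HOXA9, 140 for HOXC9, 286 for HOXC8, 332 for HOXC13, 452 for HOXD9 and 678 for HOXC10. Neither HOXC10:C13 chimera had an event there, while HOXC13:C10.1 and HOXC13:C10.2 had it at ranks 238 and 2150. At the Poteg site MEIS was present in all 3 lines, at ranks 1773, 3711 and 4625 in iHoxc6, iHoxc9 and iHoxc10 cells. The window of the Cntnap2 site begins with the letters tgacag, a core that MEIS proteins bind. MEIS events in all 3 lists were 89 bp from the site, outside the printed window.

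The median desert site lay 437 kb from the nearest protein-coding TSS and the farthest 2660 kb. More than 500 kb separated 2374 sites (40.5%) from any TSS, and more than 1 Mb separated 601 (10.3%). Most lay outside protein-coding gene bodies, but 670 (11.4%) were inside one, far from its starts. Of these 663 were intronic, 7 exonic and 3 of all sites lay in a UTR. They fell in 125 genes. Pard3b, a cell polarity gene, held 26, Npas3, a neuronal transcription factor gene, held 23, Dcc, the netrin receptor gene, held 21 and Nrxn3, a presynaptic adhesion gene, held 19. A further look at noncoding genes found 606 sites (10.3%) in a lncRNA gene body, and 1988 (33.9%) were more than 250 kb from every lncRNA TSS as well.

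Of the 2559 Mb of assembled bases on these chromosomes, 509 Mb (19.9%) are more than 250 kb from a protein-coding TSS. There were 11.5 desert sites per Mb of those bases and 12.9 other sites per Mb of the rest. These values follow from the rule and are a description. Desert shares of the 7 top lists lay on both sides of the genome share. HOXC9 had the highest at 22.5%, followed by HOXC8 at 20.4%, HOXC10 at 18.6%, HOXC6 at 18.3%, HOXC13 at 17.4%, HOXA9 at 16.2% and HOXD9 at 15.5%. The intervals of HOXC10 (17.9 to 19.4) and HOXC6 (17.6 to 19.1) overlap, as do those of HOXA9 (15.5 to 17.0) and HOXD9 (14.8 to 16.3). Over events of any rank the shares were 20.9% for HOXC9, 20.6% for HOXC13, 18.8% for HOXC8 and 17.7% for HOXC10. They were 16.9% for HOXC6, 16.1% for HOXA9 and 13.9% for HOXD9. HOXC13 thus moved next to HOXC9 when all events were counted. The full lists hold 17900 events for HOXC6 and 115879 for HOXC13, so the top 10000 is a larger part of the former.

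The profile by distance shows where in the deserts each list departs from the genome. Between 50 and 250 kb from a TSS all 7 full-length lists held more top events than the share of bases there. Beyond 1 Mb all 7 held fewer, from 0.44 times the genome share for HOXD9 to 0.944 times for HOXC9. The HOXC10:C13 chimeras went the other way, with ratios that rose with distance to 2.73 and 2.59 beyond 1 Mb.

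**Figure D1:**
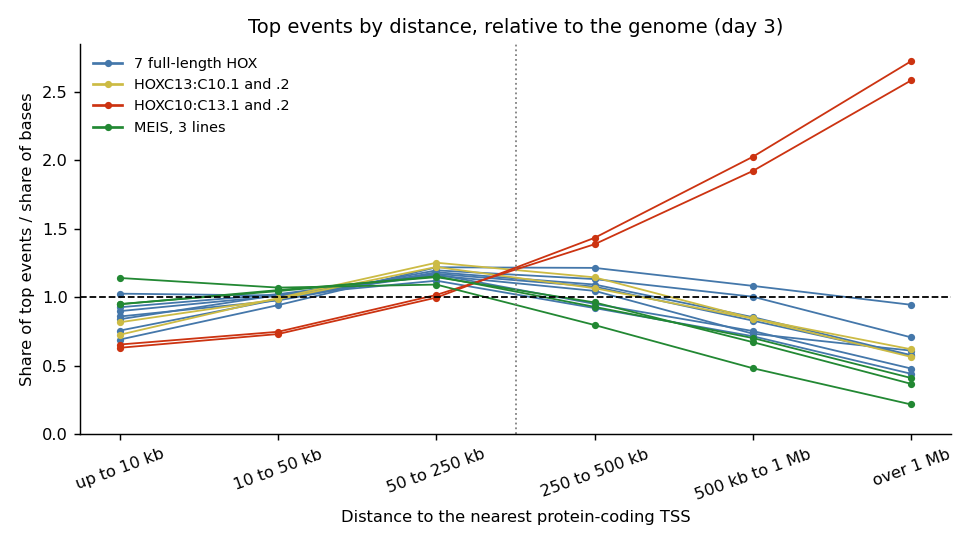
Share of top events in each distance class, divided by the share of assembled bases in that class (y axis, ratio), against distance to the nearest protein-coding TSS (x axis). Each line is 1 day 3 list, the dotted line marks 250 kb, and the 2 red lines of the HOXC10:C13 chimeras end at 2.73 and 2.59 beyond 1 Mb while the 7 full-length lists end between 0.44 and 0.944.

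Read counts at desert events were close to those at other top events. The median estimated reads were 525 at the desert and 512 at the other top events of HOXC9, 116 and 108 for HOXC6, 171 and 161 for HOXC10, and 560 and 562 for HOXC13. Median control reads at desert events were 3.7 to 4.9 over the 7 lists, and no desert event had more than 50 control reads. Low control reads were thus a feature of the whole set.

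Chromosome X stood apart. It had 65 desert sites, 2.05 per Mb of desert, against 8.41 to 17.8 on the autosomes. Other sites were also sparse on X, at 3.13 per Mb of other sequence against 9.55 to 15.2. The highest density was on chromosome 18, with 368 sites and 17.8 per Mb of desert, and chromosome 13 followed with 17.3. The 2 HOXC10:C13 lists had 1.51 and 1.04 desert events per Mb of desert on X, against 3.81 to 11.5 and 3.91 to 11.0 on the autosomes.

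Sharing among the 7 lists was much the same inside and outside deserts. A total of 3108 desert sites were in 1 top list only and 2750 (46.9%) were in 2 or more. Over all 32209 merged sites the share in 2 or more lists was 47.2%, so nothing about the desert sites can be read from their share. Sites in 2, 3, 4, 5 and 6 lists numbered 1158, 556, 381, 269 and 337. HOXC13 was the most separate factor, with 1233 of its 1650 desert sites (74.7%) in no other top list. Outside deserts 76.9% of its sites were in no other top list, so this holds for the whole HOXC13 list. HOXC9 had 626 of 2080 desert sites to itself (30.1%, against 22.5% of its other sites) and HOXC10 412 of 1840 (22.4%, against 18.9%). The lowest shares were those of HOXA9 (6.51% of 1551, against 7.87%) and HOXD9 (9.3% of 1516, against 14.0%). HOXC6 and HOXC8 alone shared 414 desert sites (7.07% of 5858), against 1675 of the 26351 other sites. In all lists but HOXC13 were 316 desert sites (5.39%), against 1225 of the other sites.

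Some pairs of factors overlapped differently in deserts, again as a description. The top HOXC9 events coincided with a top HOXA9 event in 48.6% of cases in deserts and 57.8% elsewhere. In the other direction, 64.1% of HOXA9 desert events and 52.0% of its other events had a top HOXC9 event. HOXC6 events had a top HOXC8 event in 73.9% of cases in deserts and 66.8% elsewhere, but HOXC8 events had a top HOXC6 event in 69.1% and 70.8%. With HOXC8 events of any rank counted, the shares of HOXC6 events were 97.05% and 97.3%.

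The first question on the lists that the rule did not use was whether the chimeras place their events in deserts as the full-length factors do. HOXC10:C13.1 and HOXC10:C13.2, which carry the HOXC13 homeodomain, had 36.2% (35.3 to 37.2) and 34.6% (33.7 to 35.6) of their top events in deserts. HOXC13:C10.1 and HOXC13:C10.2, with the HOXC10 homeodomain, had 19.2% (18.5 to 20.03) and 18.3% (17.5 to 19.04). The difference between the reciprocal chimeras was 17.0 percentage points (15.8 to 18.2) for HOXC10:C13.1 less HOXC13:C10.1 and 16.4 (15.2 to 17.6) for the version 2 pair, both called. HOXC13 itself, the source of the homeodomain, stood at 17.4% of its top events and 20.6% of its events of any rank. Over events of any rank HOXC10:C13.1 and HOXC10:C13.2 stood at 33.5% and 32.6%.

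The AT content of the sequence moved with this difference. The median AT content within 50 bp of the desert events of both HOXC10:C13 lists was 76.2%, against 61.4% and 60.4% for the 2 HOXC13:C10 lists. Desert bases were 61.6% AT and the rest 57.4%. When the shares were standardised to 5 classes of AT content within 500 bp, an alternative added after the data were seen, the difference was 0.26 points (-2.22 to 2.74) for the version 1 pair and -2.47 (-5.02 to 0.0785) for the version 2 pair, and neither was called. In the class with the most AT, 52.1% of HOXC10:C13.1 and 48.7% of HOXC13:C10.1 top events were in deserts, and in the class with the least, 9.36% and 8.04%.

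Repeat sequence also differed between the reciprocal chimera lists, but for the HOXC10:C13 lists about equally in deserts and elsewhere (21.9% and 21.6%, 21.1% and 20.3% of events). The share of top events with mostly lower-case (repeat-masked) bases was 21.7% and 20.6% for the HOXC10:C13 lists, against 2.24% and 1.56% for the HOXC13:C10 lists. Without those events the desert shares were 36.1% and 19.3% for the version 1 pair and 34.4% and 18.3% for the version 2 pair, so the differences were about as large. The libraries of the HOXC10:C13 lists had 0.134 to 0.201 of their reads in events and those of the HOXC13:C10 lists 0.32 to 0.527, and the part of this gap in the result was not tested.

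Versions 1 and 2 of a chimera overlapped about as much in deserts as elsewhere. Of the HOXC10:C13.1 desert events 81.1% had a top event of HOXC10:C13.2 (83.2% elsewhere), and 85.5% the other way (81.6% elsewhere). For the HOXC13:C10 pair the shares were 47.9% (49.1% elsewhere) and 50.4% (47.4% elsewhere). Desert events of HOXC10:C13.1 had a HOXC13 event of any rank in 78.4% of cases (83.6% elsewhere) and a HOXC10 event in 7.95% (10.7% elsewhere). For HOXC10:C13.2 the HOXC13 share was 82.6% (86.6% elsewhere) and the HOXC10 share 5.59% (9.04% elsewhere). Desert events of HOXC13:C10.2 had a HOXC10 event in 85.5% of cases (84.2% elsewhere) and a HOXC13 event in 47.0% (47.8% elsewhere). Those of HOXC13:C10.1 had a HOXC10 event in 50.1% (50.7% elsewhere) and a HOXC13 event in 63.3% (66.4% elsewhere). The HOXC13 list is the longer one, with 115879 events against 26873 for HOXC10, and the shares with the 2 factors are not comparable for that reason. For HOXC10:C13.1, 80.4% of desert events had an event of any of the 7 factors, against 85.5% of its events elsewhere, a difference of -5.11 points (-6.68 to -3.56).

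**Figure D2:**
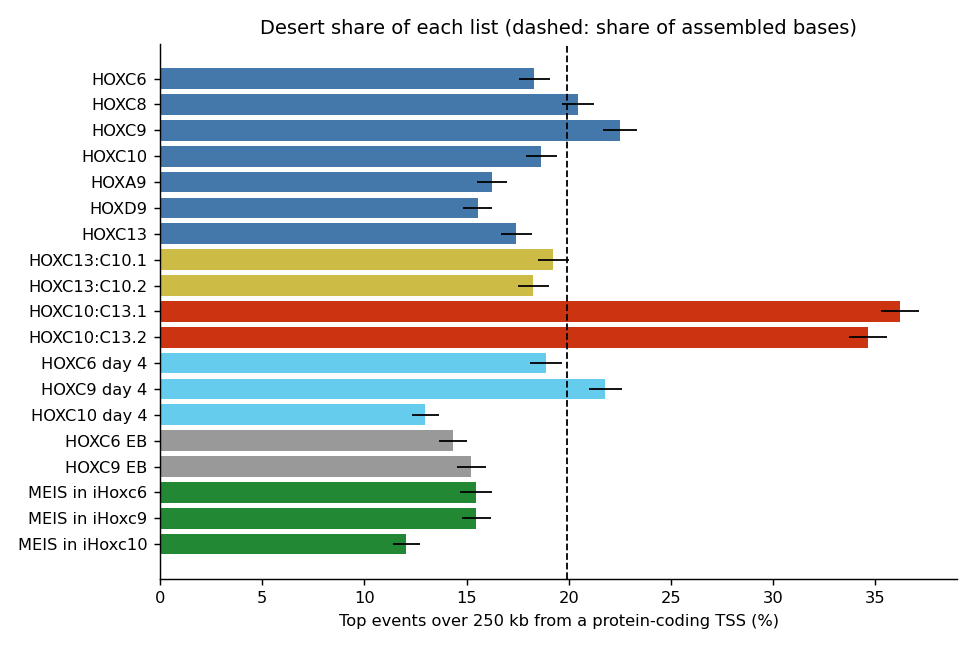
Percent of the top events of each list more than 250 kb from a protein-coding TSS (x axis), 1 bar for each of 19 lists with its 95% Wilson interval for counting. The dashed line marks the 19.9% of assembled bases in deserts, which HOXC10:C13.1 (36.2%) and HOXC10:C13.2 (34.6%) pass by the widest margin.

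Counted over the desert sites of the 7 full-length factors, HOXC13:C10.1 had an event at 4535 of 5858 (77.4%, against 75.7% of all 32209 merged sites) and HOXC13:C10.2 at 4407 (75.2%, against 75.6%). HOXC10:C13.1 had one at 1813 (30.9%, against 24.7%) and HOXC10:C13.2 at 2160 (36.9%, against 32.2%). Compared with the other sites, the desert sites had more events of HOXC10:C13.1 by 7.64 points (6.36 to 8.94) and of HOXC10:C13.2 by 5.65 points (4.3 to 7.01). They also had more of HOXC13:C10.1, by 2.14 points (0.93 to 3.31). For HOXC13:C10.2 the difference was -0.39 points (-1.63 to 0.816) and was not called. Shifting the desert sites by 10 kb left 1.06% to 1.47% with a chimera event in the 4 lists.

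Each chimera was also taken at the homeodomain donor's own top events, without a test between the reciprocal chimeras. HOXC13:C10.1 and HOXC13:C10.2 had an event at 88.7% and 99.0% of HOXC10 desert events, and the differences from other HOXC10 events were -0.27 points (-1.93 to 1.25) and -0.02 points (-0.62 to 0.41), neither called. Shares this high, above all that of HOXC13:C10.2, leave little room for a difference. HOXC10:C13.1 had an event at 42.0% of HOXC13 desert events and 36.6% of its other events, a difference of 5.41 points (2.88 to 7.96). Events of HOXC10:C13.2 were at 60.7% and 56.7%, a difference of 3.93 points (1.38 to 6.44). Neither of the last differences was called with lncRNA TSSs counted or with the top 5000 events of each list.

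MEIS is the cofactor with 3 lists. Its desert shares were 15.5% (14.8 to 16.2) in iHoxc9, 15.5% (14.7 to 16.3) in iHoxc6 and 12.0% (11.4 to 12.7) in iHoxc10 cells. The difference between iHoxc9 and iHoxc10 was 3.41 points (2.46 to 4.37) and was called, and that between iHoxc9 and iHoxc6 was -0.01 points (-1.07 to 1.05) and was not. With lncRNA TSSs counted, the latter became 0.656 points (0.041 to 1.26), which was called. Each MEIS list rests on 1 library of 9.7 to 12.1 M reads.

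MEIS events were found at 919 desert sites in iHoxc6 (15.7%, against 16.4% of all merged sites), 1697 in iHoxc9 (29.0%, against 31.7%) and 1009 in iHoxc10 cells (17.2%, against 20.7%). The iHoxc9 list is the longest, with 22749 events, against 8219 in iHoxc6 and 12982 in iHoxc10 cells. At sites 10 kb away the shares were 0.0854%, 0.358% and 0.102%. MEIS was thus at or below its share over all sites in the deserts of each line.

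At the top events of the HOX factor that the line expresses, MEIS was less frequent in deserts for HOXC9 and HOXC10. MEIS in iHoxc9 cells was at 45.1% (43.0 to 47.1) of HOXC9 desert events and 49.6% of its other events, a difference of -4.50 points (-6.83 to -2.16). In iHoxc10 cells it was at 37.0% (34.8 to 39.2) of HOXC10 desert events and 43.4% of the others, a difference of -6.44 points (-8.86 to -3.98). In iHoxc6 cells it was at 34.8% (32.7 to 37.0) of HOXC6 desert events and 34.0% of the others, a difference of 0.847 points (-1.54 to 3.28) that was not called. All 3 kept their side of the threshold under each alternative run. The 3 lists were then each taken at the events of the other factors, a comparison added after the values were seen. MEIS in iHoxc9 cells was at 37.4% of HOXC6 desert events and 37.4% of the others, a difference of 0.0786 points (-2.35 to 2.55), and at 53.4% and 58.3% of HOXC10 events, a difference of -4.93 points (-7.43 to -2.43). MEIS in iHoxc10 cells was at 23.0% and 28.2% of HOXC9 events (-5.17 points, -7.15 to -3.13), and at 30.9% and 32.8% of HOXC6 events (-1.89 points, -4.21 to 0.486). MEIS in iHoxc6 cells was at 19.9% and 22.4% of HOXC9 events (-2.52 points, -4.38 to -0.594), and at 28.0% and 29.5% of HOXC10 events (-1.52 points, -3.75 to 0.78). Within each MEIS library the desert share was thus lower at HOXC9 events by a called difference, while the difference at HOXC6 events was not called.

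Seen from MEIS, its desert events coincided with an event of the HOX factor that the line expresses more often than its other events did. The same held for most of the other HOX factors. In iHoxc10 cells 69.2% of MEIS desert events and 55.6% of the others had a HOXC10 event, which differ by 13.6 points (10.7 to 16.3). In iHoxc6 cells 62.8% and 52.7% had a HOXC6 event, a difference of 10.15 points (7.2 to 13.02). In iHoxc9 cells 86.7% and 79.3% had a HOXC9 event, a difference of 7.46 points (5.48 to 9.29). HOXC8 events were more frequent in deserts as well, by 10.3 points in iHoxc6, 13.9 points in iHoxc10 and 7.13 points in iHoxc9 cells. In iHoxc10 cells the differences were 13.3 points for HOXC6 and 12.3 points for HOXC9 events. In iHoxc6 cells they were 7.76 points for HOXC9 and 6.91 points for HOXC10 events. In iHoxc9 cells they were 4.63 points for HOXC6 and 4.16 points for HOXC10 events. The higher share was thus not particular to the factor that the line expresses. The differences for HOXA9 in iHoxc9 (0.76 points) and HOXC13 in iHoxc6 cells (1.87 points) were not called. HOXD9 events in iHoxc9 cells were less frequent in deserts (78.2% and 80.4%, -2.21 points, -4.50 to -0.0457). These comparisons were added after the values were seen.

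MEIS went with sharing among the HOX factors, in deserts and outside them. In iHoxc9 cells it was at 13.7% of desert sites in 1 top list (15.6% of other sites), 32.6% of those in 2 to 3 (40.4%) and 68.6% of those in 4 to 7 (68.5%). The iHoxc6 list gave 4.6% (5.61%), 18.03% (19.2%) and 45.1% (44.98%), and the iHoxc10 list 5.95% (9.06%), 17.97% (25.1%) and 49.8% (52.4%). At sites in 2 to 3 lists the desert share was below the other share by -7.80 points (-10.2 to -5.29) in iHoxc9 and by -7.12 points (-9.12 to -5.01) in iHoxc10 cells. At sites in 4 to 7 lists the difference was 0.121 points (-3.06 to 3.19) in iHoxc9, 0.0956 points (-3.24 to 3.46) in iHoxc6 and -2.58 points (-5.94 to 0.785) in iHoxc10 cells, none called. The ends of this range were the sites in all lists but HOXC13 and the sites in HOXC13 alone. Of the former 316 sites 79.7% had MEIS in iHoxc9 (78.5% of the 1225 such sites outside deserts), 62.7% in iHoxc6 (62.4%) and 66.5% in iHoxc10 cells (66.9%). Of the latter 1233 sites 24 (1.95%) had it in iHoxc9, and 1 (0.0811%) in each of the other lines, against 1.86%, 0.345% (iHoxc6) and 0.476% (iHoxc10) of the 6088 such sites outside deserts. No MEIS list comes from cells that express HOXC13.

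PBX events were almost absent from the desert sites. Each of its 2 lists had an event at 2 of 5858 desert sites (0.0341%, exact interval 0.00413 to 0.123), against 0.165% of all merged sites for the iHoxc9 and 0.0807% for the iHoxc10 list. The lists are short, 1165 and 848 events, and 5 events of each were in a desert. Of the PBX events 90.5% in the iHoxc9 and 87.9% in the iHoxc10 list lay within 10 kb of a protein-coding TSS. Only 0.009 and 0.008 of the reads in these 2 libraries were assigned to events. The PBX lists are from day 4 and the desert sites from day 3. At this signal the lists cannot show whether PBX was absent from desert sites, and no cause was tested.

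The later time point asks whether desert binding is kept. HOXC6 day 4 had an event at 3687 desert sites (62.9%, against 64.1% of all merged sites), HOXC9 day 4 at 3582 (61.1%, against 58%) and HOXC10 day 4 at 1886 (32.2%, against 35.3%). At their own day 3 events the shares were higher. Both counts take day 4 events of any rank. The day 4 lists hold 69297 events for HOXC6, 44024 for HOXC9 and 22027 for HOXC10. Shares are not comparable between factors for that reason. HOXC6 had a day 4 event at 99.5% of its desert events and 98.9% of the others, a difference of 0.506 points (0.00822 to 0.856). HOXC9 had one at 93.4% and 94.4%, a difference of -1.01 points (-2.21 to 0.085) that was not called. HOXC10 had one at 72.1% and 75.1%, a difference of -3.03 points (-5.30 to -0.82). The HOXC6 difference had an interval that reached 0 or below, or turned to -0.25 or -0.29 points, under 7 of the alternatives, and the HOXC10 difference was not called under 3.

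Desert shares at day 4 differed between factors as well. HOXC9 had 21.8% (20.97 to 22.6) of its day 4 top events in deserts, HOXC6 18.9% (18.1 to 19.7) and HOXC10 12.96% (12.3 to 13.6). HOXC9 exceeded HOXC6 by 2.90 points (1.78 to 4.01) and HOXC10 by 8.81 points (7.76 to 9.85). Of the HOXC10 day 4 top events 34.7% lay within 10 kb of a protein-coding TSS. The values were 18.4% and 16.0% for HOXC6 and HOXC9 at day 4, and 19.9% for HOXC10 at day 3. HOXC10 day 4 desert events had a HOXC10 day 3 event in 91.4% of cases (89.7 to 92.8), against 70.5% of its events elsewhere. Counted from the day 3 events, the share was lower in deserts (72.1%) than elsewhere (75.1%). HOXC10 day 4 desert events also held TTTAT in 55.4% of windows, against 42.9% elsewhere, but the windows 1 kb away held it in 39.9% and 28.8%. The part of the events near a TSS in these values was not tested. The 4 libraries of the HOXC10 day 4 list had 0.047 to 0.056 of their reads in events, against 0.14 to 0.188 for HOXC9 and 0.304 to 0.311 for HOXC6 at day 4, and the part of this gap in the HOXC10 values was not tested.

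In EB without patterning signals, HOXC6 had events at 587 desert sites (10.0%, against 13.3% of all merged sites) and HOXC9 at 2436 (41.6%, against 43.6%). The EB list of HOXC6 holds 44751 events and that of HOXC9 128388. Their libraries had 0.201 to 0.297 and 0.461 to 0.491 of reads in events. Shares of any rank are thus not comparable between the 2 factors. With only the top 10000 EB events counted, they were 2.9% and 6.47% of desert sites. HOXC6 in EB was at 18.4% (16.7 to 20.2) of HOXC6 day 3 desert events and 23.0% of the others, a difference of -4.62 points (-6.56 to -2.57). HOXC9 in EB was at 65.4% (63.4 to 67.3) and 69.5%, a difference of -4.16 points (-6.40 to -1.96). Both factors were thus found in EB less often at their desert events than at their other events. The desert shares of the EB lists themselves were 14.3% for HOXC6 and 15.2% for HOXC9, a difference of 0.885 points (-0.0992 to 1.87) that was not called. Time without patterning, hours of Dox and cell state cannot be told apart between EB and day 3.

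**Figure D3:**
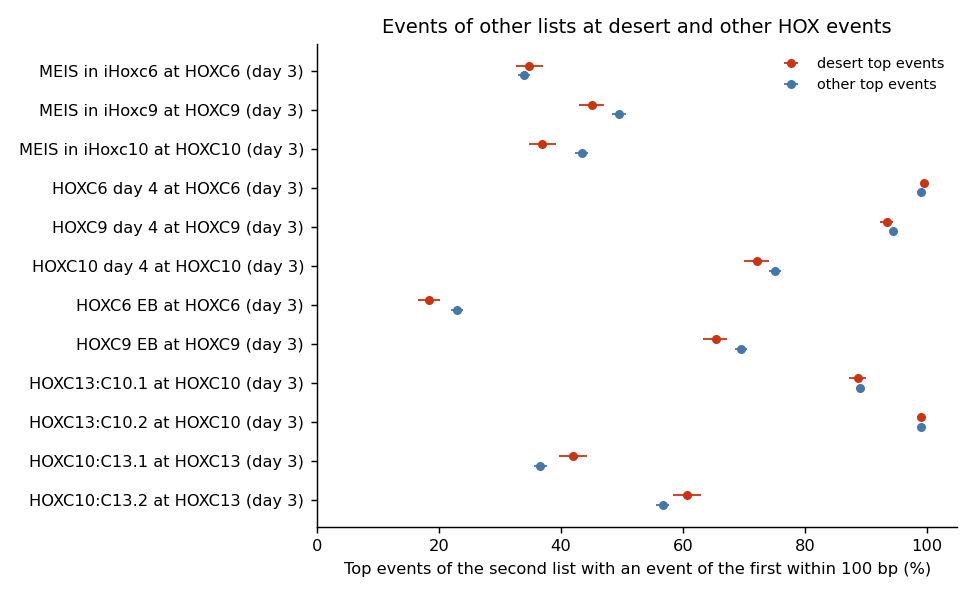
Percent of a factor's day 3 top events with an event of another list within 100 bp (x axis), for desert events (red) and other events (blue), with 95% Wilson intervals. The desert value is lower for MEIS at HOXC9 (45.1% against 49.6%) and at HOXC10 (37.0% against 43.4%) and for both EB lists, and higher for HOXC10:C13.1 (42.0% against 36.6%) and HOXC10:C13.2 (60.7% against 56.7%) at HOXC13.

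The motifs that the study names for these factors were searched as TAAT, TTTAT and TTTAC on both strands within 50 bp of each event. TTTAT and TAAT can overlap by a few letters. TAAT was in 78.3% (76.4 to 80.1) of HOXC6 desert windows and 74.3% of its other windows, a difference of 3.97 points (1.81 to 6.03). For HOXC8 it was in 82.2% and 80.04%, a difference of 2.13 points (0.209 to 3.97). TTTAT was in 68.1% (66.2 to 70.0) of HOXC9 desert windows and 65.5% of the others, a difference of 2.64 points (0.415 to 4.81). HOXC10 gave 57.6% and 54.5%, with 3.10 points (0.596 to 5.58), and HOXA9 60.7% and 56.9%, with 3.80 points (1.17 to 6.38). TTTAT at HOXD9 (0.892 points, -1.81 to 3.59) and TTTAC at HOXC13 (49.3% and 49.8%, -0.53 points, -3.11 to 2.05) were not called. At HOXC13 events TTTAT was more frequent than TTTAC, in 81.5% of desert windows and 80.8% of the others. It was also the more frequent 1 kb away from the desert events, where TTTAT was in 40.8% and TTTAC in 23.2% of windows. The 2 shares therefore do not rank the motifs by preference.

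These shares stand on unequal ground, since the sequence 1 kb to each side of a desert event held the same letters more often. TAAT was in 61.3% of windows 1 kb from HOXC6 desert events and 49.0% of those 1 kb from its other events. TTTAT was in 42.0% and 32.9% of such windows for HOXC9. Less the flank share, the desert differences turned to -9.42 points for HOXD9, -9.27 for HOXC8, -8.35 for HOXC6, -7.25 for HOXC10, -6.42 for HOXC9, -6.03 for HOXA9 and -4.99 for HOXC13. Sequence around desert events in the 7 lists had a median AT content within 500 bp of 60.7% to 62.4%, and that around other events 55.7% to 58.5%.

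In the MEIS lists TAAT was more frequent at desert events, in 71.2% of iHoxc9 windows (62.6% elsewhere), 69.9% in iHoxc6 (62.5%) and 64.4% in iHoxc10 cells (57.0%). TTTAT was too, in 55.4% (51.4%), 41.8% (37.7%) and 41.9% (36.8%). The flanks also differed, as for TAAT in iHoxc9 cells, with 58.4% and 46.7%. In the chimera lists TAAT was higher at desert events by 1.93 points (HOXC10:C13.1) to 3.62 points (HOXC13:C10.1). TTTAT was in 95.2% of HOXC10:C13.1 desert windows (94.7% elsewhere) and 96.4% of those of HOXC10:C13.2 (95.7% elsewhere). The shares were 71.4% for HOXC13:C10.1 (69.96% elsewhere) and 63.8% for HOXC13:C10.2 (61.2% elsewhere). The MEIS core TGACAG was in 3.8% and 3.88% of the HOXC10:C13 desert windows, below the 5.4% and 5.32% of their flanks, and in 4.23% and 4.15% elsewhere. At MEIS desert events in iHoxc9, iHoxc6 and iHoxc10 cells it was in 23.3%, 25.4% and 25.2%, against 6.4%, 7.41% and 6.72% of their flanks and 21.6%, 25.5% and 23.8% of MEIS windows elsewhere. TGATTTAT, the letters of a joint PBX and HOX site, was in 11.2% of MEIS desert windows in iHoxc9 cells (12.3% elsewhere), 5.63% in iHoxc6 (6.91% elsewhere) and 7.43% in iHoxc10 cells (8.34% elsewhere). Over the merged desert sites TTTAC was in 52.1% of those in the HOXC13 list alone (52.6% of such sites elsewhere) and 29.7% of those in the HOXC9 list alone (28.7% elsewhere). TTTAT was in 82.1% (81.2% elsewhere) and 75.1% (72.3% elsewhere) of these 2 sets. TGACAG was in 8.52% of the HOXC13 set (7.61% elsewhere) and in 14.9% of sites in 4 to 7 lists (12.97% elsewhere).

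**Figure D4:**
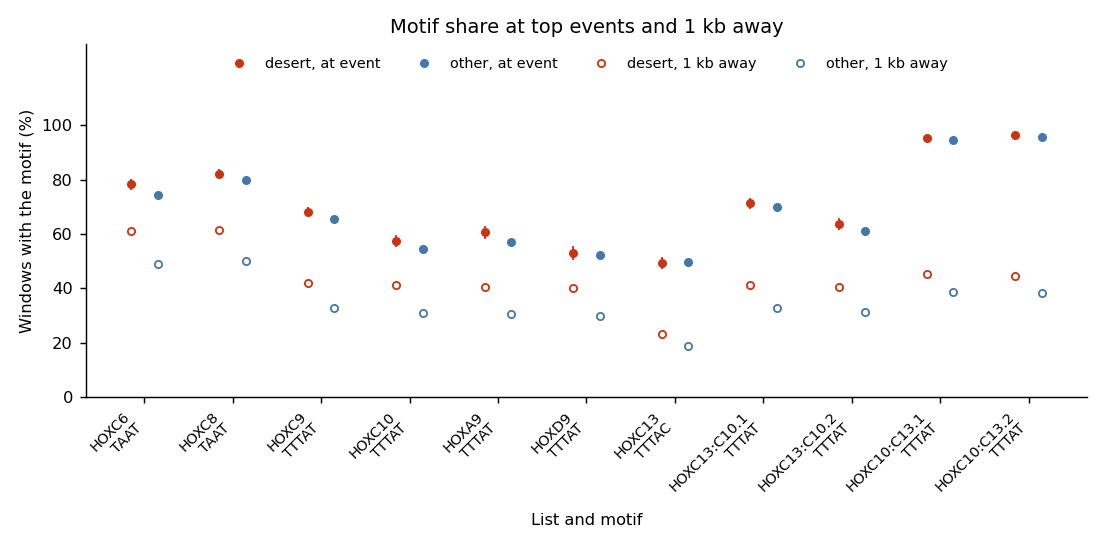
Percent of windows of 50 bp to each side with the named motif on either strand (y axis) for each list and motif (x axis). Filled points are windows at desert (red) and other (blue) top events with 95% Wilson intervals, open points are windows 1 kb away, and the open red points lie above the open blue ones in each list, as for HOXC6 (61.3% and 49.0%).

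The last question is which genes border the deserts with the most sites. A desert was taken as the stretch between neighbouring protein-coding TSSs less 250 kb at each end. There are 850, with a median length of 0.333 Mb, and 659 of them (77.5%) held a site. The 112 deserts with the most sites (13.18%) together held 50% of the sites on 36.6% of the desert bases. By length, the 127 longest deserts (14.9%) hold 50% of the bases. Deserts of 1 Mb or more had 48.4% of the sites and 57.1% of the bases. The 12 deserts with the most sites held 639 (10.9%). Neighbouring sites of a desert were a median of 29.1 kb apart, and 31.1% of such pairs were within 10 kb. Of the 160 deserts of 1 Mb or more, 5 held no site, and 4 of these are on X.

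The desert with the most sites lies between Nr2f1, a nuclear receptor gene of neural development, and Arrdc3, an arrestin-domain adaptor gene, at chr13:78449758-80633383. Its 79 sites (36.2 per Mb) include 24 in 4 or more lists. HOXC6 had 34 of them, HOXC8 40, HOXC9 39, HOXC10 36, HOXA9 31 and HOXD9 31, and HOXC13 had 6. It led the list of each of the first 6 factors, of both HOXC13:C10 chimeras (36 and 42 events) and of the 3 MEIS lists (33, 42 and 29 events). The HOXC10:C13 chimeras had 22 and 19 events in it.

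Second was Zfp608 to Gramd3 on chromosome 18, with 62 sites in 0.908 Mb (68.3 per Mb), led by HOXC10 with 35 and HOXC9 with 30. Slc10a2, a bile acid transporter gene, and Efnb2, an ephrin gene, flank 61 sites, and Sel1l and Flrt2, an axon guidance ligand gene, flank 59. The latter desert led the HOXC13 list, with 24 of its sites, while HOXC10 had 7 and HOXD9 5 there. Tenm3, a teneurin adhesion gene, and Aga flank 51 sites, and Got2 and Cdh8, a cadherin gene, flank 50. Celf4 to Pik3c3 and Pcdh20 to Pcdh9, both protocadherin genes, held 49 each. Nudt12 to Efna5 (an ephrin gene) held 48 and Zeb2 to Acvr2a 47, where Zeb2 encodes a zinc-finger homeobox repressor and Acvr2a an activin receptor. Pou3f2 (a POU-domain neural factor gene) to Mms22l and Fam181b to Tenm4 held 42 each.

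The HOXC10:C13 chimeras were spread over these deserts in another order. Their leading desert was Pcdh20 to Pcdh9, the longest of all at 4.91 Mb, with 72 and 70 events, where HOXC10 had 18 sites and HOXC13 12. Cdh6 to Cdh9 came next in both, with 55 and 51 events. In deserts of over 2 Mb HOXC10:C13.1 had 9.64 top events per Mb, against 4.49 in deserts of 0.1 to 0.5 Mb. The full-length factors went the opposite way, from 4.61 to 2.04 sites per Mb for HOXD9, 5.38 to 2.6 for HOXC10 and 4.94 to 3.83 for HOXC9. MEIS in iHoxc10 cells went from 4.57 to 1.18.

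By density, among deserts with at least 10 sites, Thap1 to Zfp703 was first, with 25 sites in 0.319 Mb (78.5 per Mb), 16 of them in 4 or more lists. MEIS had 17, 21 and 18 events in this short desert in iHoxc6, iHoxc9 and iHoxc10 cells, and HOXC10:C13.1 had 2. Csnk1g3 to Zfp608 (33 sites, 71.2 per Mb) lies on the other side of Zfp608 from the desert to Gramd3. Mtx2 to Hnrnpa3 (18 sites, 62.0 per Mb) is the desert beside the HoxD cluster, known for holding its long-range enhancers. There HOXC13 and HOXC13:C10.1 had 10 each, HOXC9 and HOXC10 5 each and HOXC6 1, and no site was in 4 or more lists. Tmem117 to Nell2 (23 sites, 57.7 per Mb) lies in the body of protein-coding genes for all 23 sites, 18 of which were in the HOXC10 list.

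**Figure D5:**
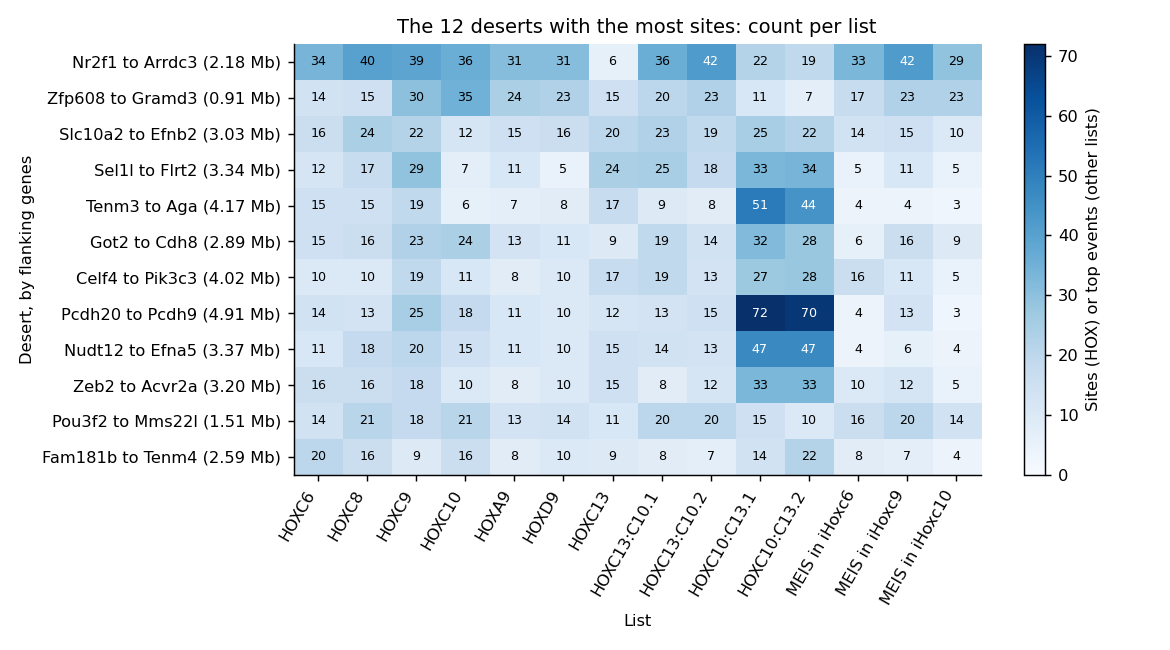
Number of sites (7 full-length HOX lists) or top events (4 chimera and 3 MEIS lists) in each of the 12 deserts with the most desert sites, 1 row per desert with its assembled length in Mb. Nr2f1 to Arrdc3 is darkest across most lists but holds 6 HOXC13 sites, and Pcdh20 to Pcdh9 holds 72 and 70 events of the HOXC10:C13 chimeras.

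Flanking genes were counted against 4 gene lists. Developmental transcription factors border 112 of the 850 deserts (13.18%), 96 of the 659 with a site (14.6%) and 37 of the 212 with 10 or more sites (17.5%). Their deserts held 19.8 sites per Mb, against 11.5 over all deserts, and 3 of the 12 with the most sites (Nr2f1, Zeb2 and Pou3f2) are among them. The HOXC10:C13.1 list had 6.17 top events per Mb in these deserts and 7.09 over all. Neuronal adhesion and axon guidance genes border 132 deserts (15.5%), 59 of the 212 (27.8%) and 7 of the 12, but these deserts are long and their 10.9 sites per Mb were below the value over all. HOXC10:C13.1 had 9.01 events per Mb there. Ion channel and neurotransmitter receptor genes border 54 deserts with 8.4 sites per Mb. Olfactory and vomeronasal receptor genes border 4 deserts with 4 sites, 2.26 per Mb.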

How the data were processed

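ChIP-seq reads were aligned by the authors to mm10 with Bowtie 1.0.1, keeping unique best hits, and binding events were called with MultiGPS on the pooled libraries of each group against a control. Picard 2.8.2 and edgeR 3.22.5 are also named in the submitters' processing notes. Each of the 21 deposited lists gives, for each position, an estimated count of ChIP reads and of control reads, the fold between them in log2 units, and a q-value score. Columns with the authors' log2 fold changes and log2 q-values of edgeR comparisons between conditions were not used. Estimated counts were used only to rank within a list.

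Protein-coding and lncRNA TSSs were those of GENCODE release 21, over all transcripts. All 34012 deposited sequences checked were found on GRCm38 within 100 bp of their event. Shares had Wilson and differences Newcombe 95% intervals (Python 3.11.15, scipy 1.17.1, pandas 2.3.3, pysam 0.24.0), tested on simulated data. Events of different lists matched within 100 bp. Groups came from the labels, and 2 control libraries entered no comparison. Named genes border the 12 deserts with the most sites and the 5 densest with at least 10, and named sites are the strongest of each factor and the 4 most shared by mean rank. Alternatives covered distance, start sites, ranking, list length, matching, motif window and read count. The members and lists were chosen with earlier results of these data known. The comparisons by base composition, repeats, gene starts and MEIS list length, MEIS at the events of other factors, the counts from the chimeras', MEIS and day 4 desert events, and the chimera and MEIS strongest sites were added after values were seen.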

Additional observations from a re-analysis of the deposited data

Results flagged for a closer look

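Of 9 pairs of desert effects compared, 4 had intervals that leave out 0, and no cause was tested. Each effect is the share of a factor's desert events with an event of the other list, less the same share at its other events. The MEIS effect at HOXC9 in iHoxc9 cells (-4.50 points) was below that at HOXC6 in iHoxc6 cells (0.847 points) by -5.35 points (-8.72 to -2.00). The MEIS effect at HOXC10 in iHoxc10 cells (-6.44 points) was below that at HOXC6 by -7.29 points (-10.7 to -3.86). These 3 MEIS lists come from 1 library each and differ in length, so line and library cannot be told apart between them. Within the iHoxc9 library alone, the effect was -4.50 points at HOXC9 and 0.0786 points (-2.35 to 2.55) at HOXC6 events. Within the iHoxc10 library it was -6.44 points at HOXC10 and -1.89 points (-4.21 to 0.486) at HOXC6 events. The differences within a library were not tested.

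The effect of day 4 at HOXC9 (-1.01 points) was below that at HOXC6 (0.506 points) by -1.51 points (-2.77 to -0.313). The effect of day 4 at HOXC10 (-3.03 points) was below that at HOXC6 by -3.53 points (-5.84 to -1.27). Nearly all HOXC6 day 3 events had a day 4 event (99.5% and 98.9%), which leaves little room for a difference there. The day 4 lists also differ in length, and the part of this in the effects was not tested. The 5 other pairs (HOXC10 against HOXC9 in both sets, the 2 EB lists, and version 1 against version 2 of each chimera) had intervals that include 0.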

How the results depend on the processing

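No paired analysis was possible because each list pools its libraries and holds no value per library, so no library could be left out either. Of 27 results, 9 kept their direction and call under every alternative run. The number of desert sites was 11754 over 100 kb, 2374 over 500 kb, 1988 with lncRNA TSSs counted and 3205 from the top 5000 events. Chimera differences in desert share fell to 0.26 (version 1) and turned to -2.47 (version 2) when standardised to AT content. HOXC6 at day 4 lost its call over 500 kb (0.29), with lncRNA TSSs (0.659), outside gene bodies (0.407), ranked by q-value (0.506) and with gene starts only (0.24), and turned to -0.25 with the top 5000 and -0.29 with matches within 50 bp. HOXC10 at day 4 lost it with lncRNA TSSs (-3.57), the top 5000 (-1.78) and the top 5000 day 4 events (-1.04). HOXC9 at day 4 was called when ranked by q-value (-1.26) or standardised to read count (-1.27). HOXC10:C13.2 at HOXC13 lost its call over 500 kb (3.37), with lncRNA TSSs (1.74) and with the top 5000 (1.92), and HOXC10:C13.1 in the last 2 (2.20 and 2.16). HOXC13:C10.1 at HOXC10 was called when ranked by q-value (-1.96) and turned to 2.37 with its top 5000 events. MEIS in iHoxc9 less iHoxc6 turned to 0.656 with lncRNA TSSs, and HOXC9 less HOXC6 in EB was called with gene starts only (1.66).

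TTTAT at HOXC9 lost its call over 100 kb (1.35), with lncRNA TSSs (2.56), ranked by q-value (1.84), with the top 5000 (2.00), within 25 bp (1.76) and with gene starts only (1.70). TTTAT at HOXA9 lost it over 500 kb (3.37) and with the top 5000 (2.41), and TTTAT at HOXC10 with the top 5000 (3.18). TAAT at HOXC6 lost it with lncRNA TSSs (2.64) and the top 5000 (2.68), and TAAT at HOXC8 with lncRNA TSSs (1.89) and outside gene bodies (1.77). TTTAT at HOXD9 was called within 100 bp (2.57). Less the share 1 kb away, the 7 motif differences were -8.35, -9.27, -6.42, -7.25, -6.03, -9.42 and -4.99 in the order HOXC6, HOXC8, HOXC9, HOXC10, HOXA9, HOXD9, HOXC13. Values are percentage points unless they are counts of sites. Fewer events enter with lncRNA TSSs, over 500 kb or from the top 5000, and the other causes were not tested. The small share of PBX reads in events limits what the PBX lists can show.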
